A study of Mus musculus with 4 samples.

Results

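The annexins described here are 10 genes, Anxa1, Anxa2, Anxa3, Anxa4, Anxa5, Anxa6, Anxa7, Anxa10, Anxa11 and Anxa13, of 28307 gene names on a 2-colour mouse array. They were chosen by symbol, as every gene probe that carried one of these names, which gave 18 probes of 60 bases. RNA from sorted cells of normal colon of adult mice was compared on 4 arrays. One population, labelled Lgr5-GFP, was sorted on GFP in Lgr5_EGFP-ires-CreERT2 knockin mice, which carry GFP in the Lgr5 gene, whose product is an R-spondin receptor on stem cells of the crypt base. The other, labelled CD24hi, was sorted from colonic crypts with a PE-conjugated antibody to the surface protein CD24, which the design describes as a sort for part of the goblet cells. From each population 300 ng of total RNA was labelled, and each of 2 replicates was measured on a first array and on a dye swap. Nothing in the labels ties the replicates to different animals, so p-values reflect the variation of these 2 samples, which may be technical. The arrays of a replicate shared a slide, and a slide effect cannot be told apart from a replicate effect. In such bulk RNA fewer cells of a type and less RNA per cell cannot be told apart.

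Annexins are proteins that bind membranes rich in acidic phospholipids when calcium rises. All share a folded core that holds the calcium sites, and they differ mainly in the stretch before it, which binds partners such as S100 proteins. In epithelia they are known for roles in membrane traffic, exocytosis, membrane repair and the control of inflammation.

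Every ratio below is the RNA labelled Lgr5-GFP over the RNA labelled CD24hi, on the log2 scale after background correction and loess normalization, and its sign rests on the dyes given in the labels. The sort markers went against those labels. Lgr5 itself was lower in the RNA labelled Lgr5-GFP by a log2 ratio of -3.41 ± 0.29 (SD, n = 2, limma adjusted p 6.26e-04), while Cd24a, the gene of CD24, was higher by 2.12 ± 0.30 (adjusted p 7.83e-04) and the goblet mucin Muc2 by 3.76 ± 0.58 (adjusted p 6.46e-04). Lgr5 was not well above background in both populations, and its ratio ran from -4.91 to -2.69 over 15 other ways of processing. If the labels of the populations were exchanged, every "higher" below would become "lower" with the same size. The dye swap of replicate 1 also stood apart. Its median spot signals were 4377 and 1358, against 94.2 to 197 on the other 3 arrays, and the scanner software marked 75.3% of its gene spots as outliers, which were left out. Among the annexins 10 of 18 probes were marked there. Across genes the arrays, turned to the same direction, correlated at r of 0.721 to 0.958 (genes are not independent replicates).

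The arrays measured annexins through single 60-base probes, and 3 are shown because they report genes called in opposite directions and share a sequence feature. Positions are those of the file annotation (mouse build mm9), and neither an exon nor a UTR was assigned to them here. Capitals mark the stretch of 18 bases with the most letters shared by the 3 probes, GAANTATNNNANNTCNCT, which was read from these probes and not set beforehand.
Anxa1 (chr19:20448248-20449761, minus strand): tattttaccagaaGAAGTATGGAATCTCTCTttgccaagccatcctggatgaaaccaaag
Anxa13 (chr15:58173475-58173534, minus strand): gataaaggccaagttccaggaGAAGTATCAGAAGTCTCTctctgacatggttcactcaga
Anxa2 (chr9:69337510-69337569, plus strand): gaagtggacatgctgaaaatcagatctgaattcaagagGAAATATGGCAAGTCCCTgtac
It has 11 letters in common, and occurred on the printed strand in 3 of the 18 annexin probes. On either strand it occurred in 4 of 41174 gene probes of the array (0.0097%). The 3 annexin probes are those the pattern was read from, so their count was fixed by the search and shows no enrichment. The 3 genes did not share a direction, since Anxa1 had a negative ratio and Anxa2 and Anxa13 had positive ones. Over the 143 pairs of probes of different annexin genes, the longest shared run was 9 bases, and the most identical bases at the best ungapped offset were 27. The Anxa1 probe spans 1514 bases of the genome, so its 60 bases are not contiguous there.

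Of the 10 annexins, 8 had a probe well above background on all arrays with a value in at least 1 population, and each gene is given by its brightest such probe. Of these 8 genes, the RNA labelled Lgr5-GFP held more of Anxa13, Anxa3, Anxa5, Anxa2 and Anxa7 and less of Anxa1, and Anxa4 and Anxa11 did not pass an adjusted p of 0.05. Calls were common on these arrays. Of 14802 genes tested, 6981 (47.2%) were called, 3203 (21.6%) higher and 3778 (25.5%) lower. With each array centred on its median in place of loess, 2253 were higher and 5492 lower, and with the scanner-processed signals 2636 and 4995. The median ratio was 1.02 over the 8 annexins and -0.068 over all genes tested. Over the arrays with a value, 7 of the 8 annexins kept 1 direction, against 10507 genes (71%) of all tested.

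**Figure D1:**
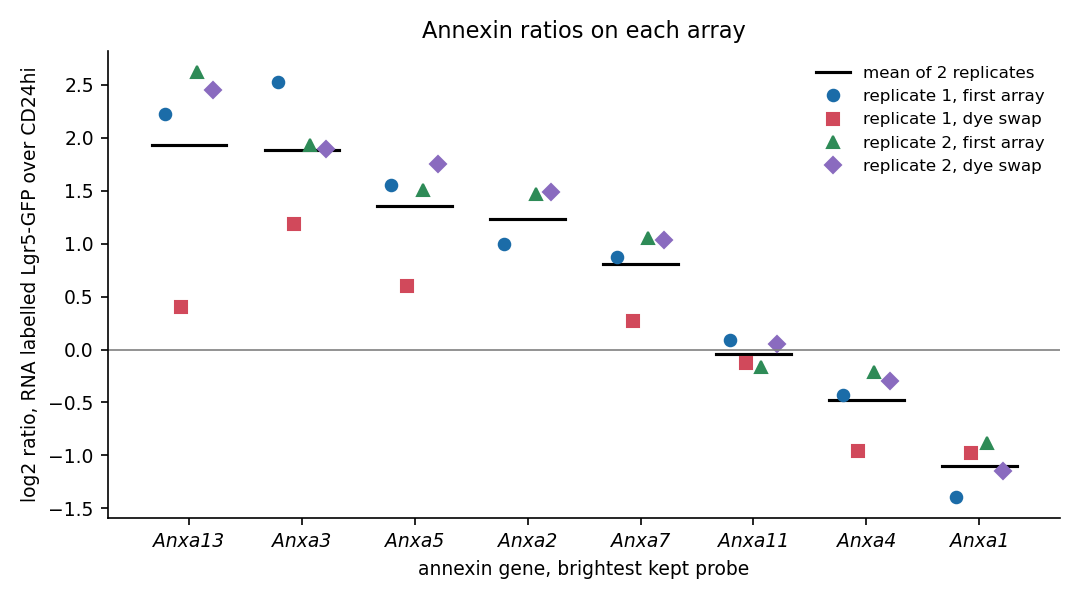
Log2 ratio of the RNA labelled Lgr5-GFP over the RNA labelled CD24hi (y axis) for the 8 annexin genes tested (x axis), with 1 point per array and a bar at the mean of 2 replicates. The dye swap of replicate 1 (squares) is the lowest point for Anxa13, Anxa3, Anxa5, Anxa7 and Anxa4, and Anxa2 has no value there.

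Anxa13 is an intestinal epithelial annexin, known for its attachment to membranes through a fatty acid and for apical transport. For each replicate the value of the first array is given before that of its swap. The Anxa13 ratio was 2.23 and 0.41 in replicate 1 and 2.62 and 2.46 in replicate 2. All 4 arrays put it higher in the RNA labelled Lgr5-GFP, with the dye swap of replicate 1 far below the other 3. The mean was 1.93 ± 0.86 (SD, n = 2), a 3.81-fold difference with a 95% interval of 1.21 to 2.65 on the log2 scale and a limma adjusted p of 0.00432. Only 1.76% of the genes tested had a higher ratio. This probe (chr15:58173026-58173082) gave signals of 20151 and 5031 in the populations labelled Lgr5-GFP and CD24hi on the dye swap of replicate 1, and no more than 2284 and 816 on the other arrays. The Anxa13 probe printed above was marked on that swap and read 2.06, 2.44 and 2.25 on the other 3 arrays. Its mean was 2.20 ± 0.20 with a limma adjusted p of 6.31e-04, so both probes of the gene were higher. With marked spots kept, its spot on that swap read 0.086.

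Anxa3, an annexin studied in neutrophils and in several carcinomas, had ratios of 2.53 and 1.19 in replicate 1 and 1.93 and 1.90 in replicate 2. The 2 replicates met at nearly the same mean, although the arrays of replicate 1 lay on either side of it. The mean was 1.89 ± 0.038 (SD, n = 2), a 3.70-fold difference with a 95% interval of 1.58 to 2.19 and a limma adjusted p of 6.92e-04. Its probe lies at chr5:97274784-97274843. A second Anxa3 probe, for the cDNA AK076467 at chr5:97228985-97229044, was well above background on the dye swap of replicate 1 alone and was not tested.

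Anxa5 binds phosphatidylserine, and its protein is the usual reagent for dying cells. Its probe (chr3:36348065-36348124) read 1.55 and 0.60 in replicate 1 and 1.51 and 1.75 in replicate 2, all higher. The mean was 1.35 ± 0.39 (SD, n = 2), a 2.55-fold difference with a 95% interval of 0.93 to 1.78 and a limma adjusted p of 0.00262. Anxa2, which pairs with S100a10 in a complex at the plasma membrane that binds actin and plasminogen, read 0.997 on the first array of replicate 1 and 1.47 and 1.49 in replicate 2. Its probe, printed above, was marked on the dye swap of replicate 1, where it read -0.18 if marked spots were kept. The mean was 1.24 ± 0.34 (SD, n = 2), a 2.36-fold difference with a 95% interval of 0.84 to 1.63 and a limma adjusted p of 0.00282. A second Anxa2 probe, which spans 775 bases of the genome (chr9:69330846-69331620), read 1.23 and 0.23 in replicate 1 and 1.80 and 1.59 in replicate 2. Its mean of 1.21 ± 0.68 (limma adjusted p 0.00999) was close to that of the first probe, with the same array lowest.

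Anxa1, known for its induction by glucocorticoids and for limiting inflammation through formyl peptide receptors, went the other way. Its ratio was -1.39 and -0.98 in replicate 1 and -0.88 and -1.14 in replicate 2. All 4 arrays were below 0, and the dye swap of replicate 1 lay among the others. The mean was -1.10 ± 0.12 (SD, n = 2), a level 2.14-fold lower than in the RNA labelled CD24hi, with a 95% interval of -1.41 to -0.78 and a limma adjusted p of 0.00211. A lower ratio was found for 6.82% of the genes tested. Anxa1 was 1 of 8 annexins called lower, against 25.5% of all genes, and 5 of 8 were called higher, against 21.6%.

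Anxa4 is an annexin of secretory and absorptive epithelia that assembles on membranes. Its brightest probe (chr6:86687023-86687083) read -0.43 and -0.95 in replicate 1 and -0.21 and -0.30 in replicate 2. The mean of -0.47 ± 0.31 (SD, n = 2) missed the threshold with a limma adjusted p of 0.0501, and its 95% interval ran from -0.85 to -0.09. In the fit over probes in place of genes the same values gave 0.0477. A second Anxa4 probe (chr6:86686834-86686847 in the file annotation) read -0.34 in replicate 1 and 0.13 and -0.072 in replicate 2, with a mean of -0.16 ± 0.26 (limma adjusted p 0.403). The third, for the cDNA AK032703, was too dim to test. Anxa11, known for tethering RNA granules to lysosomes, read 0.089 and -0.13 in replicate 1 and -0.17 and 0.050 in replicate 2. Its arrays fell on both sides of 0 in each replicate, and the mean was -0.039 ± 0.027 (SD, n = 2, limma adjusted p 0.816). The 95% interval of -0.34 to 0.26 at these 2 replicates leaves a difference of either sign in Anxa11 possible.

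In order of mean ratio the genes ran Anxa13, Anxa3, Anxa5, Anxa2, Anxa7, Anxa11, Anxa4 and Anxa1. The 95% intervals of neighbours overlapped at each step except that from Anxa7 to Anxa11. Differences between genes were not tested.

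Anxa7, the first annexin described, as synexin, for its fusion of chromaffin granules, had 3 probes that were kept, and they did not share a direction. The ends of the 3 probes (bases 31 to 60) are shown because the probes differ in which transcript they were designed from, with the polyadenylation hexamer AATAAA in capitals.
NM_009674 (chr14:21275240-21275299, minus strand): gctgaagtttcctggtacaagtggAATAAA
AK032013 (chr14:21278155-21278214, minus strand): aatgtagagagtctacatcagagcatctgt
AK041855 (chr14:21290387-21290446, minus strand): ctaaaatattctcctgtgatcaggagctgt
AATAAA, searched on both strands, occurred in 1 of the 18 annexin probes and in 8.80% of gene probes. The brightest probe, designed from NM_009674, read 0.88 and 0.27 in replicate 1 and 1.05 and 1.04 in replicate 2. All 4 arrays were above 0, and the mean of 0.81 ± 0.34 (SD, n = 2) was a 1.75-fold difference with a 95% interval of 0.41 to 1.20 and a limma adjusted p of 0.0102. On the dye swap of replicate 1 its signals were 12515 and 3685 in the populations labelled Lgr5-GFP and CD24hi. On the other arrays they were no more than 509 and 476. With marked spots kept, its ratio on that swap was -0.081. The AK032013 probe read -0.072 in replicate 1 and -1.17 and -1.20 in replicate 2, with a mean of -0.63 ± 0.79 (limma adjusted p 0.103). The AK041855 probe read -0.31 in replicate 1 and -0.29 and -0.38 in replicate 2, with a mean of -0.32 ± 0.019 (limma adjusted p 0.0728). It was kept through the RNA labelled CD24hi alone, where it read higher. In the RNA labelled Lgr5-GFP its signal on the first array of replicate 2 was 89.5, with a local background of 51.5. That signal was not well above background, so the direction of this probe carries little weight. Both cDNA probes were marked on the dye swap of replicate 1, so replicate 1 rests on its first array for them. With the 3 probes averaged, the Anxa7 ratio was -0.047 with a limma adjusted p of 0.762, so the call for Anxa7 holds for the NM_009674 probe alone.

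**Figure D2:**
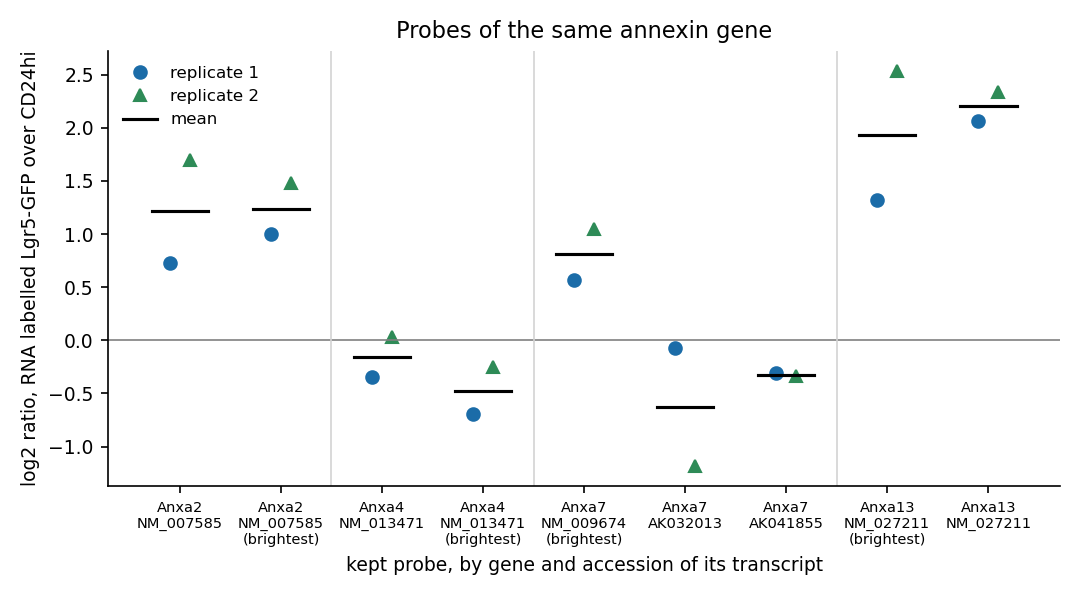
Log2 ratio of the RNA labelled Lgr5-GFP over the RNA labelled CD24hi (y axis) for each kept probe of the 4 annexins with more than 1 (x axis, with the accession of the transcript), 1 point per replicate and a bar at the mean. Probes of Anxa2 and of Anxa13 lie together, while the NM_009674 probe of Anxa7 lies at 0.81 and the other Anxa7 probes at -0.63 and -0.32.

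Anxa6, whose core is duplicated, and Anxa10, an annexin of gastric epithelium, had no probe that could be tested. The Anxa10 probe (chr8:64536504-64536563) gave signals of 89.9, 81.2 and 149 in the RNA labelled Lgr5-GFP on 3 arrays, the swap of replicate 1 aside. In the RNA labelled CD24hi it gave 176, 157 and 91.9. The local backgrounds were 51, 50 and 130.5 for the former and 134, 124 and 49 for the latter. Of those 6 measurements only the one of 176 was marked as well above background. On the dye swap of replicate 1 the same probe read 17212 and 4734, and its spot was marked. The Anxa6 probe for NM_013472 (chr11:54798588-54798647) read 101, 101 and 156 in the RNA labelled Lgr5-GFP and 168, 155 and 97.4 in the RNA labelled CD24hi, and again far more, 4338 and 1212, on that swap. Without the filter on dim probes, Anxa6 had a ratio of 0.22 (limma adjusted p 0.133) and Anxa10 one of -0.19 (0.197), which are ratios of signals mostly not well above background. All 5 annexin probes that were not kept were bright on the dye swap of replicate 1 alone, and all 5 were marked there.

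**Figure D3:**
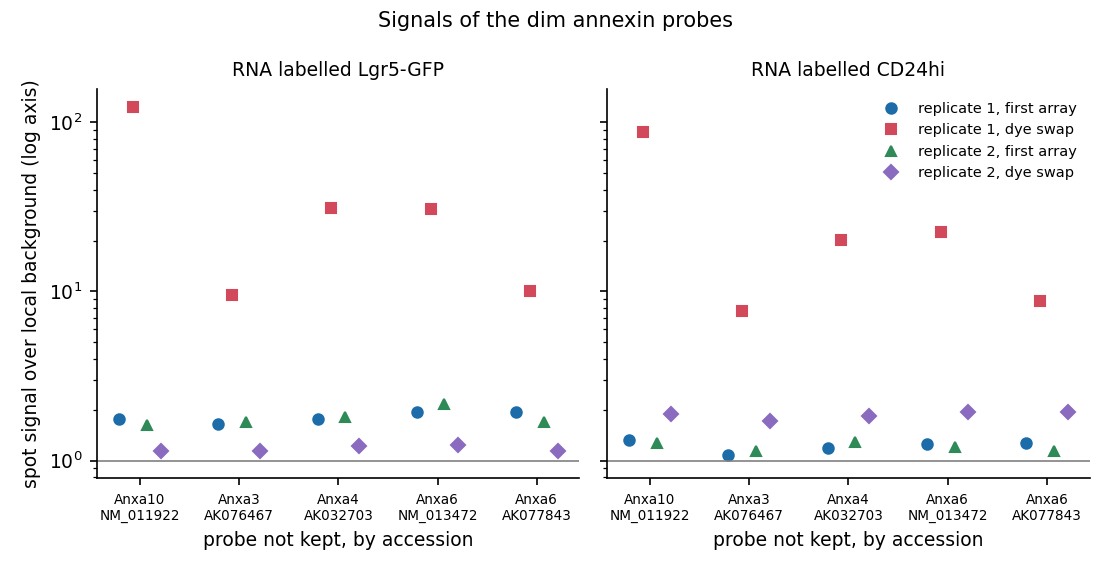
Mean spot signal divided by the local background (y axis, log scale) in each population for the 5 annexin probes that were not kept (x axis), with 1 point per array. Points of the dye swap of replicate 1 lie far above those of the other 3 arrays, which lie above the line at 1 but much closer to it.

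The promoters of Anxa1 and Anxa2 are shown because these genes were called in opposite directions and both windows hold a TATAAA. They are the 250 bases before the start in RefSeq (GRCm38.p6), with TATAAA and TGACTCA (the AP-1 consensus), searched on both strands, in capitals.
Anxa1 (chr19:20390672-20390921, minus strand): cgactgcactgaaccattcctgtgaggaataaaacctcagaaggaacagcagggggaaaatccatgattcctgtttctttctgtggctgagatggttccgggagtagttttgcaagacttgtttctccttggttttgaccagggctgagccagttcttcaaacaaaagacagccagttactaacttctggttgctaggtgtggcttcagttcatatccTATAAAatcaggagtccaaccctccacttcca
Anxa2 (chr9:69453433-69453682, plus strand): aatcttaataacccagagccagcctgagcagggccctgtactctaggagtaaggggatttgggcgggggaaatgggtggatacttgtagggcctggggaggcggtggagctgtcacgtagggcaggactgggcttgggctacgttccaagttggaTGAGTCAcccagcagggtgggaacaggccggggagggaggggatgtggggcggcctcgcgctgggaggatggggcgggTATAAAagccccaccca
A window of 300 bases was found for 7 of the 10 annexins (9 windows). TATAAA occurred in 3 of these 9 windows and in 13.6% of all 32851 windows, and TGACTCA in 2 of 9 and in 5.20%. A match is a description of the letters and not a binding site.

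Genes whose proteins work with annexins did not move in a single direction. A list of 15 genes held S100 genes, small calcium-binding proteins of which several bind annexins, and also S100pbp, which is not one of them. Of these, 12 were tested, 5 were higher, against 21.6% of all genes, 2 were lower, against 25.5%, and the median ratio was 0.12. That median had no settled sign, since it ran from -0.10 with processed signals to 0.53 with the filter in both populations, and was 0.045 without replicate 1 and 0.42 with its first array alone left out. S100a10, the partner of Anxa2, was lower in the RNA labelled Lgr5-GFP, opposite to Anxa2. It read -1.72 on the first array of replicate 1 and -1.62 and -1.25 in replicate 2, with a mean of -1.57 ± 0.20 (SD, n = 2, limma adjusted p 0.00103), and was marked on the dye swap of replicate 1. S100a11, a partner of Anxa1, was not called, with a ratio of 0.16 (limma adjusted p 0.320). S100a6, which binds several annexins, was higher at 1.12 ± 0.025 (limma adjusted p 0.00178), as were S100a13 at 2.18 ± 0.49, which takes part in the release of fibroblast growth factor, S100a16 at 1.42 and S100a14 at 1.15. The other gene called lower, S100pbp at -0.99, encodes a binding protein of S100P and not an S100 protein. S100a4 and S100b, with ratios of -0.32 and -0.43, were not called. Without the dye swap of replicate 1 both were called lower, at -0.49 (limma adjusted p 0.00661) and -0.68 (0.00544), and over the 16 alternatives with a test S100a4 was called in 3 and S100b in 4. Without replicate 2 the S100b ratio was 0.074. The calls of S100a10, S100pbp, S100a14 and S100a16 were each lost in 1 alternative and that of S100a6 in 2, one of them with the first array of replicate 1 left out (0.90, limma adjusted p 0.0680).

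Among genes of calcium-dependent membrane repair and annexin binding, 11 of the 13 listed were tested, 3 were higher and 1 was lower, against 21.6% and 25.5% of all genes, and the share higher was near that of all genes. The median was 0.24, and it was 0.053 without replicate 2, 0.40 without replicate 1 and -0.13 without the first array of replicate 1. Capns1, the small regulatory subunit of the calpain proteases, was higher at 2.55 ± 0.082 (SD, n = 2, limma adjusted p 6.26e-04). Myof, a ferlin that promotes membrane fusion, was higher at 0.80 and Capn1, a calpain catalytic subunit, at 0.64. Of 14 alternatives with a test, Capn1 lost its call in 3, with a ratio of 0.34 (limma adjusted p 0.0940) under median centring, and Myof in 2, while Capns1 lost it in 0. Ahnak, a giant scaffold that binds the complex of Anxa2 and S100a10, was lower at -0.59, but its 5 probes ranged from -0.62 to 0.14 and its call was lost in 5 of 16 alternatives, among them without the first array of replicate 1 (limma adjusted p 0.288). Capn2 at 0.60 was not called, but was without the dye swap of replicate 1 (limma adjusted p 0.0405). Tsg101 at 0.35 and Chmp4b at 0.24, parts of the machinery that buds membranes, were not called through their brightest probes, while a second probe of each was called higher, at 0.53 and 1.35. Without the dye swap of replicate 1 the brightest probes were called too, at 0.46 and 0.36.

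Copines, which bind phospholipids with calcium through C2 domains, gave 6 tested genes of 9, with 1 higher, against 21.6% of all genes, and 3 lower, against 25.5%. The median was -0.36, with a range of -0.76 to -0.073 over the alternatives and -0.17 without the first array of replicate 1, where 2 copines were tested. Cpne2 was higher at 0.74, and Cpne5 at -0.61, Cpne8 at -0.60 and Cpne1 at -0.46 were lower. With non-uniform backgrounds kept all 4 lost their calls, with limma adjusted p of 0.0565 to 0.157. Cpne2, Cpne5 and Cpne1 also lost theirs with marked spots kept, and Cpne8 lost its own without the first array of replicate 1 (-0.43, limma adjusted p 0.512). A second Cpne8 probe had the opposite sign at 0.33 and was not called, and the mean of the Cpne8 probes was -0.14 (limma adjusted p 0.386). Of 8 receptors and genes of the plasminogen system, 3 were tested. The urokinase receptor Plaur was higher at 1.18 ± 0.37 (SD, n = 2), and the tissue plasminogen activator Plat at -0.61 and the receptor for bacterial lipoproteins Tlr2 at -1.22 were lower. Plaur lost its call without the first array of replicate 1 (0.87, limma adjusted p 0.0798), and in 2 of 16 alternatives in all, Plat in 2 of 13 and Tlr2 in 1 of 14. Plat was not well above background in both populations. Fpr1 and Fpr2, the formyl peptide receptors through which Anxa1 acts, were too dim to test, as were Plg and Plau. Of the annexin genes outside the 10, Anxa8 was higher at 0.45 ± 0.013 (SD, n = 2, limma adjusted p 0.0291), and Anxa9 was too dim. The Anxa8 call was lost in 5 of 14 alternatives, with 0.15 (limma adjusted p 0.423) under median centring and 0.37 (0.0752) without the first array of replicate 2.

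**Figure D4:**
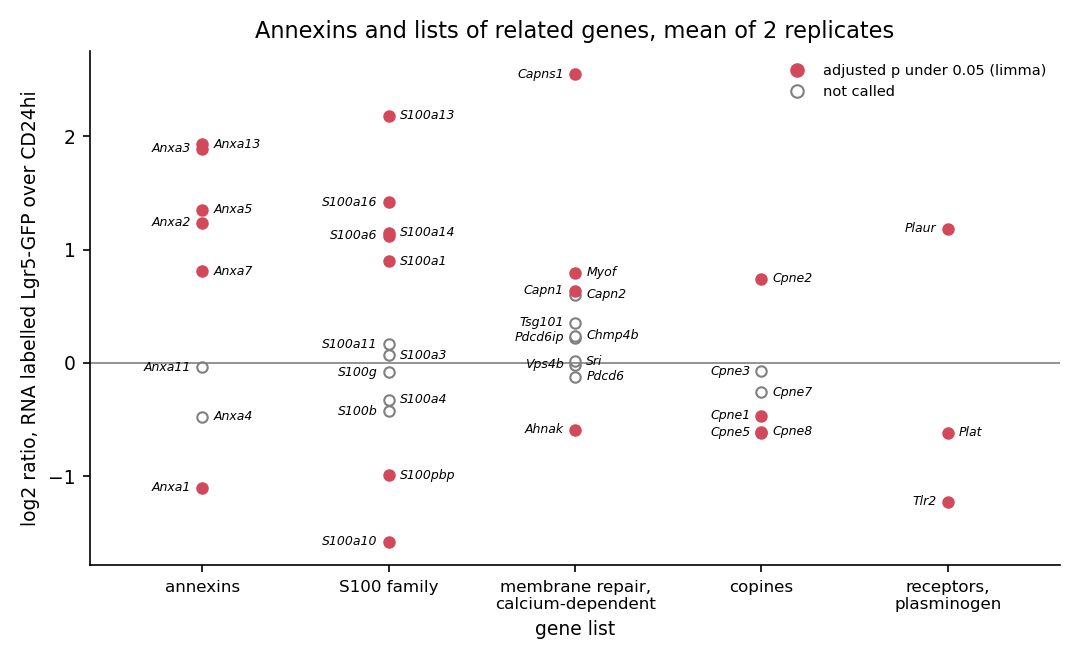
Mean log2 ratio of the RNA labelled Lgr5-GFP over the RNA labelled CD24hi (y axis) for each tested gene of the annexins and of 4 lists of related genes (x axis); filled points passed an adjusted p of 0.05 in limma. Anxa2 at 1.24 and its partner S100a10 at -1.57 lie on opposite sides of 0.

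Markers of several epithelial cell types differed between the populations, and their part in the annexin ratios was not tested. The counts below stand beside 21.6% of all genes called higher and 25.5% called lower. Signals below are summed over the tested markers of a list on each array. They were summed after background correction, loess and quantile normalization of mean intensity between arrays. Each range is the lowest to the highest sum of the 3 arrays without the dye swap of replicate 1. All 12 goblet markers were tested, 9 were called higher and none was called lower in the RNA labelled Lgr5-GFP, with a median of 2.70 and summed signals of 740509 to 1079870 against 76319 to 145741. Those not called were Zg16 at 0.30, Fcgbp at 0.097 and Tff3 at -0.95 (limma adjusted p 0.0794). Tff3 was below 0 in both replicates, at -1.75 and -0.16. Of 8 stem cell markers 7 were tested and all 7 were lower, with a median of -2.09 and sums of 7231 to 8238 against 27126 to 31981. The eighth, Olfm4, was too dim. With the filter in both populations 5 stem cell markers were tested, with a median of -2.09, and Lgr5 was not among them. Of 9 colonocyte markers 5 were higher and none was lower, with a median of 0.46 and sums of 207474 to 219430 against 37017 to 41456. Guca2a, the gene of guanylin, with a ratio of 3.05, gave 83.1% to 85.5% of the former sums, and without it the sums were 30086 to 37048 against 16789 to 21188. Tuft cell markers were higher in 5 of 5 tested (6 listed, median 1.88, sums of 2611 to 3706 against 993 to 1102). With the filter in both populations 4 of them were tested, with a median of 1.17. Enteroendocrine markers were higher in 3 of 4 tested (6 listed, median 3.34, sums of 110911 to 178058 against 4229 to 17156). Chgb gave 60.6% to 82.2% of the former sums, and without it the sums were 19692 to 60348 against 1027 to 5572. Markers of cells outside the epithelium were mostly too dim to test, and too few were left to set against those shares of all genes. Of 9 myeloid markers 3 were tested and 1 was lower, with sums of 1882 to 2564 against 2194 to 3308. Cd14 gave 79.2% to 79.9% of the former sums and 81.0% to 85.3% of the latter. Without it the sums were 392 to 514 against 416 to 490. Of 8 T and B cell markers 2 were tested and none was called, with sums of 578 to 715 against 677 to 815. Of 10 stromal and endothelial markers 3 were tested and 1 was higher, with sums of 2898 to 4563 against 2699 to 5009. Acta2 gave 79.4% to 84.3% of the former sums and 82.7% to 87.2% of the latter. Without it the sums were 596 to 877 against 466 to 641.

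The processing changed some of the annexin calls. Anxa3, Anxa5 and Anxa13 were called higher in all 16 alternatives that allow a test, with ratios of 1.46 to 2.23, 1.05 to 1.63 and 1.31 to 2.54 over all 18. Anxa2 lost its call where marked spots were kept (0.94, limma adjusted p 0.0733) and on the dye swaps alone (0.91, 0.0663). Anxa1 lost it where spots with a non-uniform local background were kept (-0.90, 0.0565). Without the dye swap of replicate 1, Anxa4 was called lower at -0.34 (limma adjusted p 0.0355), and Anxa4 was also called without the first array of replicate 2 at -0.50 (0.0358). Anxa7 lost its call without the first array of replicate 1 (0.66, limma adjusted p 0.235).

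**Figure D5:**
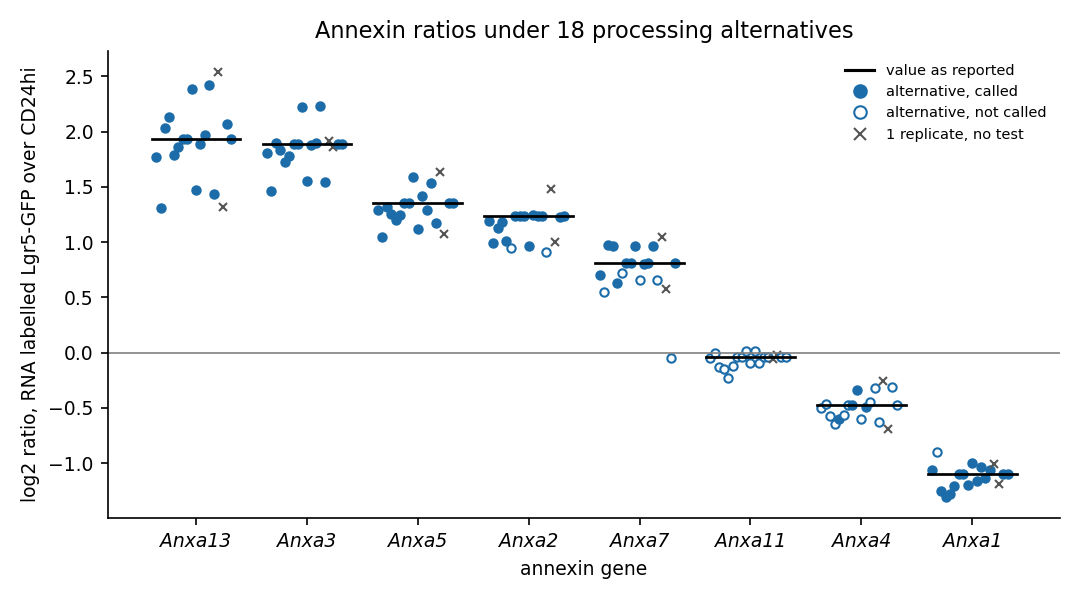
Log2 ratio of the RNA labelled Lgr5-GFP over the RNA labelled CD24hi (y axis) for each annexin (x axis) under 18 processing alternatives, filled where called by limma, open where not, and crosses where 1 replicate left no test; the bar is the value as reported. Anxa13, Anxa3 and Anxa5 are filled wherever tested, and Anxa7 has 1 alternative at -0.047.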

How the data were processed

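The deposited intensity values were mean spot brightness and local background in both dyes, read with Feature Extraction 10.5.1.1 per the file headers, without normalization. The deposited log10 ratio came from that software's processed signals, and the deposited series table held log2 ratios with a normalization not given in the sources used here. The software's outlier and background marks are deposited as further columns. Red over green was turned by the dyes in the labels. Marked spots and spots with a non-uniform local background were left out before normexp correction (offset 50) and loess (span 0.3) in limma 3.58.1 (R 4.3.3), because earlier results of these data had shown their effect. The arrays of each replicate were averaged into a single ratio, and these 2 ratios were tested against 0 with limma (2-sided, Benjamini-Hochberg over 14802 genes, 1 residual and 4.495 prior degrees of freedom). Each gene was given by its brightest probe that the software marked as well above background, in 1 population or both, on every array with a value. For 9142 genes the dye swap of replicate 1 had no value, so that replicate was not dye-balanced for them. No spot was saturated, and the number of arrays limits the precision. Of the gene spots, 27041 took names from a RefSeq table and 16338 kept their own. Named were all annexins, the sort markers, and from each list up to 4 called genes per direction and up to 3 not called. The members, lists and alternatives were chosen with earlier results of these data known. One listed gene is not reported here.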

Additional observations from a re-analysis of the deposited data

How the results depend on the processing

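Each array holds both populations, so the ratios tested against 0 are already paired within an array, and no further pairing was possible. Over 18 alternatives, Anxa3, Anxa5 and Anxa13 kept direction and, in the 16 with a test, their call. With non-uniform backgrounds kept, 1556 genes were called (843 higher, 713 lower), and Anxa1 (-0.90) and Anxa7 (0.55, adjusted p 0.0584) lost their calls, which left 0 annexins lower, while 5879 genes had an unadjusted p under 0.05. With marked spots kept, 3731 genes were called (1435 and 2296), Anxa2 (0.94) and Anxa7 (0.72) were lost and 3 annexins were higher. On the dye swaps alone, 967 of 6022 genes were called (493 and 474), Anxa2 (0.91) and Anxa7 (0.65) were lost and 3 annexins were higher; fewer genes were tested there, and the cause of the other shifts was not tested. Median centring moved the median of all genes from -0.068 to -0.25 and the share of calls that were higher from 45.9% to 29.1%, with Anxa4 called at -0.60. With the filter in both populations Anxa4 was called at -0.47 (adjusted p 0.0434). In each setting that called Anxa4, 2 annexins were lower. Scanner-processed signals had a higher share of 34.5% and a median of -0.26. Leaving out 1 array at a time gave from 982 calls of 6023 genes tested to 8549 of 14802 (500 to 3987 higher, 482 to 4562 lower). Anxa4 then ranged from -0.60 to -0.34 (-0.50 without the first array of replicate 2), Anxa7 from 0.66 to 0.96, and Anxa11 was reversed at 0.015 when either the dye swap of replicate 1 or the replicate 2 first array was left out. Anxa7 reversed at -0.047 with probes averaged. Cpne3, not called, reversed at 0.099 with the first array of replicate 1 left out and at 0.14 for the swaps alone. Leaving marked spots out after the background fit, an alternative chosen after seeing the data, called 6985 genes.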
